A study of Homo sapiens with 8 samples.

Results

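The small open reading frames (smORFs) annotated to REG4 and to IGFL2 were examined in Ribo-Seq data, which count RNA fragments protected by ribosomes. Of 24199 smORFs in the count table, 6 were assigned to these genes, 2 to REG4 and 4 to IGFL2, and they were found by an exact match of the host gene name. The genes were selected on their measured values in undifferentiated cells against differentiated control cells, so their difference between those groups is described here and not tested. All cells were Caco-2, a line from a human colon adenocarcinoma that becomes enterocyte-like as it differentiates, and no other line enters the comparison. The 8 libraries fall into 4 groups of 2: undifferentiated cells, and differentiated cells left untreated (control), given taurocholate (bile salt) micelles without lipid or given lipid micelles (BSA, oleic acid and cholesterol). The time allowed for differentiation before Ribo-Seq is not given in the sources used here.

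REG4 encodes a secreted C-type lectin of the regenerating (REG) family, found in secretory cells of the intestine and often raised in colorectal tumours. IGFL2 encodes a small secreted protein of the insulin growth factor-like (IGFL) family, whose function is little understood. An upstream open reading frame (uORF) lies in the 5′ untranslated region (5′ UTR) of a gene, and ribosomes that translate it can limit how many reach the main coding sequence. The counts below therefore report ribosomes on the leaders of these genes and not on the REG4 or IGFL2 coding sequences, which were not measured in this table.

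All 6 smORFs were classed as uORFs, and at all 6 the hg38 genome was identical to the deposited smORF sequence. In GENCODE release 44, none of their bases lay in a coding sequence of their host gene and no gene lay on the opposite strand. The 4 IGFL2 smORFs also lay within the span of a same-strand long non-coding RNA gene without a symbol. Whether they lay in its exons is not reported here, so reads of that RNA cannot be set apart. The deposited annotation names non-coding RNA features at these 4, and for IEC_06046 also a coding feature, which was not among the GENCODE coding sequences of IGFL2. They formed 3 overlapping pairs, so a read in one member of a pair could also be counted in the other. Their first bases are shown to place where each frame opens, with the first codon in capitals.
IEC_13492 (REG4): CTGggaccactggagacactgaagaaggca
IEC_21207 (REG4): ATTtgcagatcaaggagaacccaggagttt
IEC_06046 (IGFL2): ATGtttgatattggactgtggttgtgccag
IEC_12533 (IGFL2): GATattggactgtggttgtgccagttgaca
IEC_12532 (IGFL2): GTTcatagcctacataagtccctgtataaa
IEC_04235 (IGFL2): GCActgctgctgtcccatcagctgctc

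Only IEC_06046 of these 6 opened with ATG, the usual start codon, while IEC_13492 opened with CTG and IEC_21207 with ATT, each 1 base from ATG. Among all 16911 uORFs, 35.6% opened with ATG, 10.6% with a codon 1 base from it and 53.8% with another codon.

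The REG4 pair lay on chromosome 1, minus strand. IEC_13492 (119808780 to 119811468) had 48 codons in 2 exons, and IEC_21207 (119808780 to 119808863) was its last 84 nt, a frame of 28 codons in the second of those exons. Both ended in TAG, 7 nt before the REG4 start codon in each of the 4 annotated transcripts with that start codon. Not all 4 held the frames whole. Of the 144 nt of IEC_13492, the exons of a transcript held 136 and those of another held 26. That last transcript also held only 26 of the 84 nt of IEC_21207. The remaining transcripts held both frames whole. The IGFL2 smORFs lay on chromosome 19, plus strand, wholly or in part in the leaders of a pair of transcripts with different first exons. The transcript that starts further upstream is called distal here and the other proximal. IEC_06046 (46147905 to 46148868, 17 codons) and IEC_12533 (46148302 to 46148868, 15 codons) shared 44 nt of the second exon of the distal transcript, where no other IGFL2 transcript has an exon, and their stop codon TAG stood 114 nt before its coding start. Of the 45 nt of IEC_12533, 44 lay in that exon, and its first base lay in no annotated IGFL2 exon. IEC_12532 (46148198 to 46148269, 24 codons) and IEC_04235 (46148243 to 46148269, 9 codons) ended in TGA, 6 nt before the coding start of the proximal transcript. Of the 72 nt of IEC_12532, 32 lay in the annotated exon of the proximal transcript, so this frame began upstream of that transcript.

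**Figure D1:**
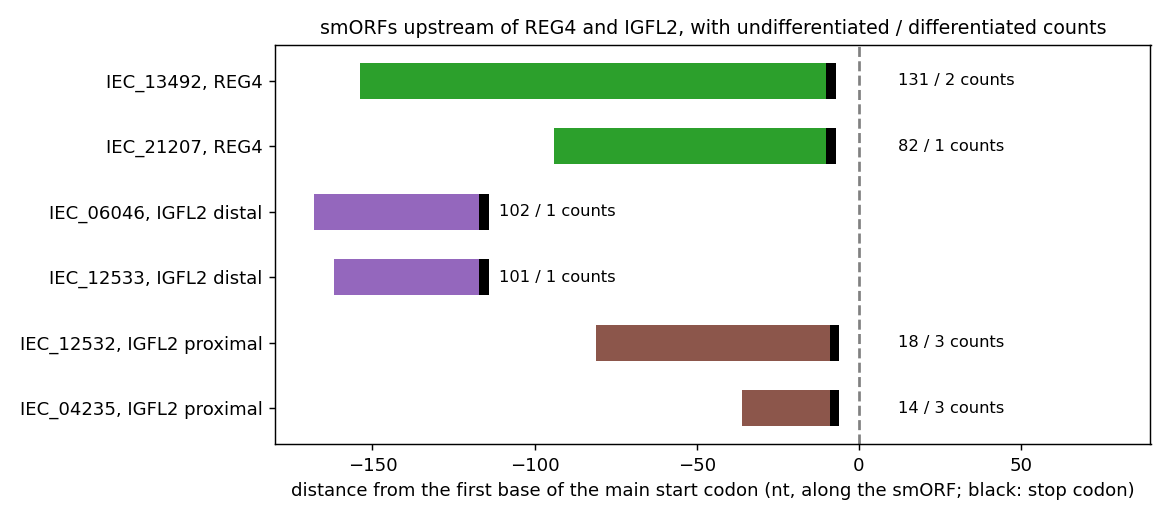
Position of each smORF relative to the main start codon of the named transcript (x axis, nt; black marks the stop codon), with summed counts in the 2 undifferentiated and 6 differentiated libraries. The REG4 pair (131 and 82 undifferentiated counts) and the proximal IGFL2 pair (18 and 14) end just before the start codon, whereas the distal IGFL2 pair (102 and 101) ends 114 nt before it.

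RibORF, the authors' caller, scored the members from 0.711 for IEC_12532 to 1.001 for IEC_12533, against a median of 0.87 over all uORFs. IEC_12532 stood at the 3.32 percentile of uORFs by this score. The longer REG4 frame, IEC_13492 (0.738), was also low, at the 11.9 percentile. Their mean PhyloCSF scores, which measure protein-like conservation and are negative where it is lacking, ran from -9.103 for IEC_21207 to -6.015 for IEC_04235. The median over uORFs was -6.592, and 97.2% of uORFs were below 0.

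In undifferentiated cells all 6 smORFs carried ribosome footprints, and in the 6 differentiated libraries no member exceeded 2 counts. Because the libraries are bulk samples, fewer cells that carry a transcript and less of it per cell cannot be told apart, and a Ribo-Seq count also mixes transcript level with translation. Library totals of smORF counts ran from 506382 to 884711, and 3 counts, the limit that a count of 0 allows, corresponded to 3.37 to 5.66 CPM (smORF counts scaled to a library total of 1000000). These limits and the intervals below cover counting error only.

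Of the 6 members, 4 passed the filter on low counts, and IEC_12532 and IEC_04235 did not. Those 4 could pass only through the undifferentiated libraries. All 4 were called lower in differentiated control cells (edgeR), against 15.6% of the 15182 smORFs tested, and nothing is read from this count since the contrast chose the genes. The same 4 were called lower with micelles without lipid, where 16.2% of smORFs were, and with lipid micelles, where 16.3% were. Both comparisons share the undifferentiated libraries with the first.

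IEC_13492, the longer REG4 frame, held 78 and 53 counts in undifferentiated cells (104 ± 19.4 CPM, SD, n = 2). It held 0 counts in both control libraries and both lipid micelle libraries, and 0 and 2 in those given micelles without lipid. The groups did not overlap, and control cells were at least 22.1-fold lower when set at 3 counts per library. Over all 6 differentiated libraries, 2 counts were found against 131, so undifferentiated cells were 222-fold higher (95% exact counting interval 60.1 to 1850).

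IEC_21207, the shorter REG4 frame, held 45 and 37 counts (65.4 ± 3.44 CPM, n = 2), and 1 count in total after differentiation, in a library given micelles without lipid. The first-exon part that only IEC_13492 covers held 33 and 16 counts against 1, so both exons of the REG4 leader followed the same course. The deposited annotation marks a repeat element for IEC_13492, as for 37.5% of uORFs, and none for IEC_21207. IEC_21207 took 57.7% of the IEC_13492 counts in undifferentiated replicate 1 (95% Wilson interval 46.6 to 68.0%) and 69.8% in replicate 2 (56.5 to 80.5%), and these intervals overlapped.

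IEC_06046, the ATG frame of the distal IGFL2 transcript, held 66 and 36 counts in undifferentiated cells (80.4 ± 27.0 CPM, n = 2). Its only count in a differentiated library came from replicate 1 of the cells given micelles without lipid. Undifferentiated cells were 345-fold higher than the 6 differentiated libraries together (60.6 to 13800), a wide interval because it rests on 1 count. IEC_12533, which shares nearly all of its bases, held 66 and 35 counts and again 1 count after differentiation. The undifferentiated replicates differed 1.62-fold in CPM for IEC_06046, more than the 1.3-fold of IEC_13492.

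The frames of the proximal IGFL2 transcript were weaker. IEC_12532 held 11 and 7 undifferentiated counts (14.3 ± 3.30 CPM, n = 2) and IEC_04235 held 8 and 6 (11.1 ± 1.31 CPM). Each had 1 count in 1 library of every differentiated group, 3 in all. Undifferentiated cells were 20.3-fold higher for IEC_12532 (5.93 to 108) and 15.8-fold higher for IEC_04235 (4.41 to 85.7), and the groups did not overlap for either frame.

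**Figure D2:**
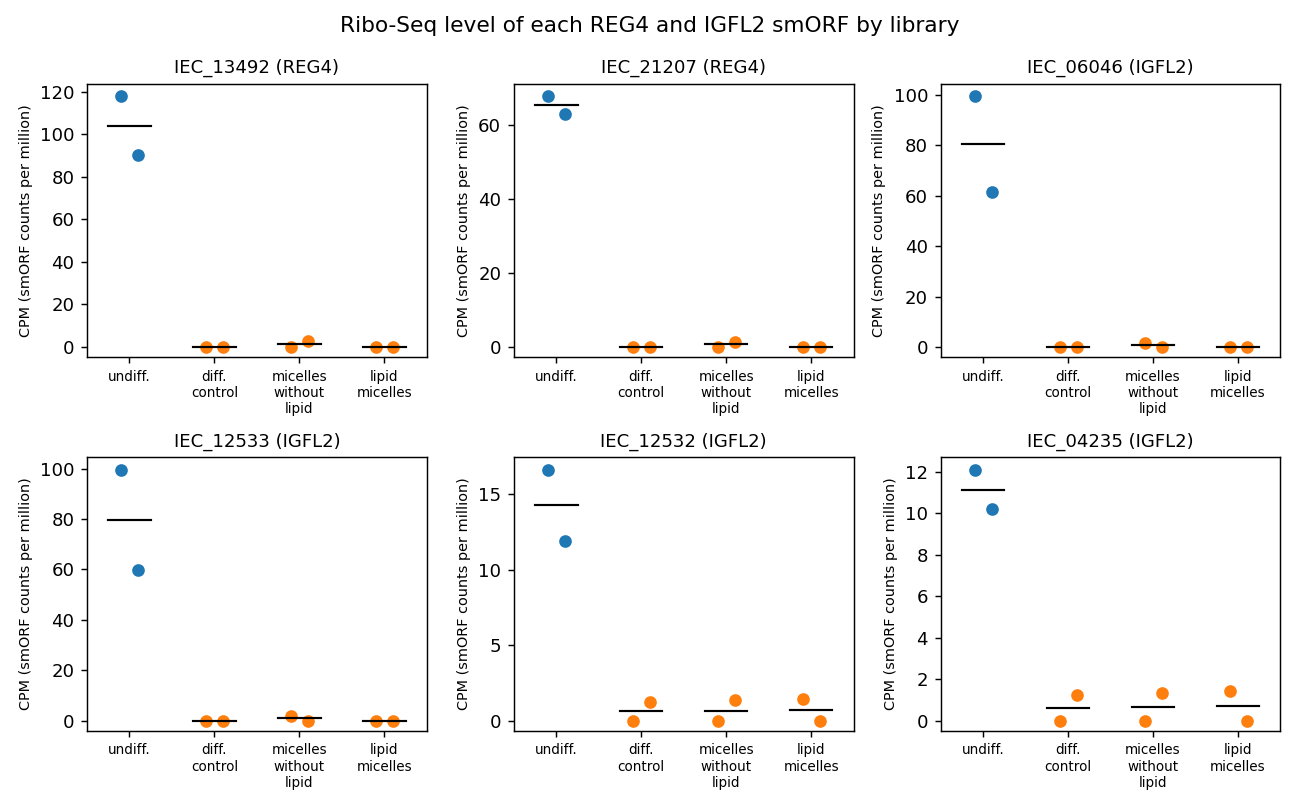
Level of each smORF (y axis, CPM from a true 0; the scale differs between panels) in the 2 libraries of each group, with dots for libraries and bars for means. In every panel both undifferentiated libraries lie above all 6 differentiated libraries, as they do for 21.4% of all smORFs, and the genes were selected on this contrast.

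The gap in level per length between REG4 and IGFL2 in undifferentiated cells depended on the frames used. Taking 1 smORF per overlapping pair, the REG4 level was 72.2 ± 13.4 CPM per 100 nt and the IGFL2 level 77.0 ± 24.7 CPM per 100 nt (n = 2 each), a difference smaller than either SD. With all smORFs summed, which counts shared bases more than once, the levels were 74.3 ± 10.0 and 95.1 ± 30.7. That difference was above the REG4 SD but below the IGFL2 SD. Within IGFL2 the levels were unequal, at 158 ± 53.0 CPM per 100 nt for IEC_06046, 19.8 ± 4.59 for IEC_12532 and 41.3 ± 4.84 for IEC_04235. Only 32 of the 72 nt of IEC_12532 lay in the annotated proximal exon, whereas IEC_04235 lay wholly in it, so the size of the gap depends on the frame used. Of the counts of IEC_06046 and IEC_12532 together, IEC_06046 took 85.7% in replicate 1 (95% Wilson interval 76.2 to 91.8%) and 83.7% in replicate 2 (70.0 to 91.9%). IEC_06046 thus held most of these counts in both libraries. Nearly all its bases are shared with IEC_12533, which opens outside the annotated distal transcript. The counts therefore cannot be assigned to the distal transcript alone. After differentiation 4 IGFL2 counts were left over both leaders, too few to give a share.

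The values that chose the genes are given here as a description. When the 2496 smORFs with 0 counts in both control libraries are ordered by undifferentiated level, the 4 members stand first, which restates that choice. The lowest of them was IEC_21207 at 65.4 CPM. The next in order, just outside, were IEC_16527 in the small nuclear RNA gene RNU5F-1 at 37.6 CPM, IEC_19916 outside any named gene at 35.6 CPM and IEC_19675 in CGGBP1 at 34.4 CPM. Limits set after the values were seen gave other smORFs of this kind. With 50 counts or more in undifferentiated cells and 2 or fewer after differentiation, the 4 members were joined by IEC_11967 in STS, which encodes steroid sulfatase. With 100 or more and 3 or fewer, IEC_21207 was lost and IEC_23334 in LINC00242, a long non-coding RNA gene, was added, and with 80 and 2 there were the 4 members alone. The undifferentiated level of the 4 was not extreme, at the 78.3 to 87.9 percentile of smORFs tested.

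**Figure D3:**
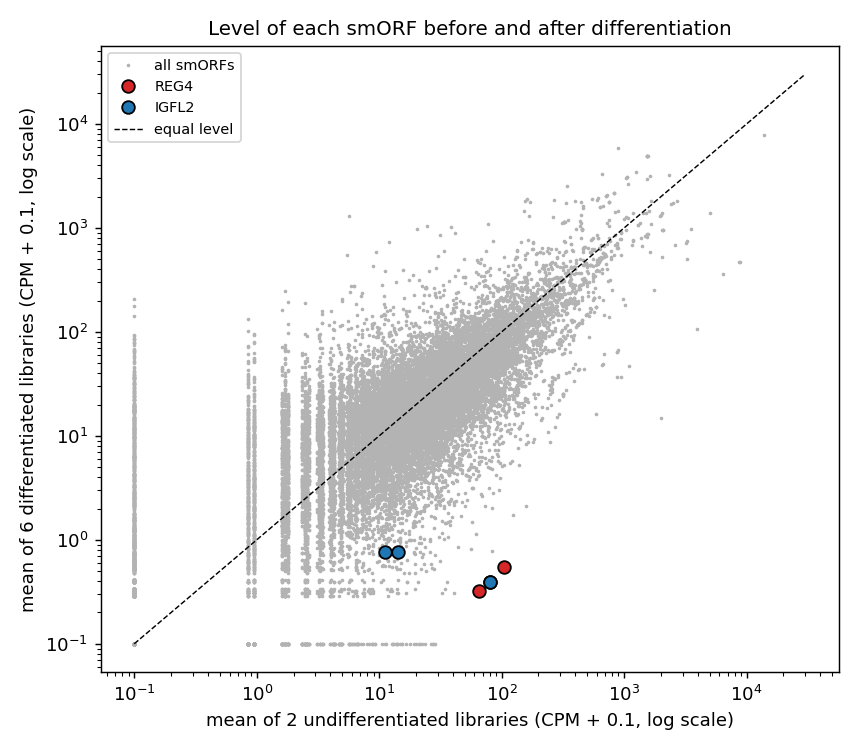
Mean level of all 24199 smORFs in the 2 undifferentiated (x axis) and 6 differentiated libraries (y axis), as CPM plus 0.1 on log scales. The REG4 smORFs and the upper IGFL2 pair, whose dots coincide, lie at 65.4 to 104 CPM on the x axis with hardly any signal on the y axis. IEC_23334 in LINC00242, with 100 or more undifferentiated and 3 or fewer differentiated counts, also lies low. REG4 and IGFL2 were selected on this contrast.

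Micelle treatment is the comparison that did not enter the choice of the genes when lipid micelles are set against micelles without lipid. The question it addresses is whether lipid changes smORF use in differentiated cells. IEC_13492 held 0 and 0 counts with lipid against 0 and 2 without, and IEC_06046 held 0 and 0 against 1 and 0. None of the 4 members tested was called, and 0.0% of all smORFs were (edgeR adjusted p = 0.999 for each member, and the smallest unadjusted p was 0.0938 for IEC_13492). At an unadjusted p under 0.05 there were 624 smORFs and no member, and DESeq2 called 0. All values were at or under 3 counts, so a difference between the micelle groups was not detectable at this depth and no fold is given.

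Against differentiated control cells, whose libraries the choice of the genes had used, neither micelle group had a called member or any called smORF (0.0% in both). At an unadjusted p under 0.05 there were 619 smORFs for micelles without lipid and 708 for lipid micelles, with no member among them, and DESeq2 called 2 and 0. The smallest unadjusted p of a member was 0.114, for IEC_13492 with micelles without lipid (edgeR adjusted p = 1.0). The low footprint counts on the leaders of both genes in differentiated cells were thus measured in 3 groups that were treated differently.

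The nearest host genes with a smORF tested held counts in all 4 groups, and none was called. Their nearest tested smORFs lay 96.8 kb (PHGDH) and 365 kb (SEC22B) from those of REG4. For IGFL2 the distances were 262 kb (IRF2BP1) and 452 kb (CALM3). On chromosome 1, IEC_07777 in PHGDH, the gene for the enzyme that opens serine synthesis, held 15 and 10 counts in undifferentiated cells and 6 and 6 in control cells (log2 fold change -1.12 ± 0.57 SE, edgeR adjusted p = 0.136). On its other side, IEC_22216 in SEC22B, a vesicle transport gene, held 50 and 43 against 45 and 89 (log2 fold change 0.40 ± 0.29, adjusted p = 0.283). On chromosome 19, IEC_14603 in IRF2BP1 had a log2 fold change of -0.50 ± 0.62 (adjusted p = 0.56) and IEC_01491 in CALM3, a calmodulin gene, one of -0.36 ± 0.35 (adjusted p = 0.455). None of the 10 smORFs tested in these neighbours was called.

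Of the other REG and IGFL family genes and their receptors, 3 of 12 had a smORF. IGFLR1, the receptor known for IGFL1, had 1 smORF with 0 counts in all 8 libraries. IGFL2-AS1, an antisense RNA, had 1 smORF, IEC_22588, with 10 and 4 undifferentiated counts and 1 and 2 in control cells, and it was not tested. EXTL3, a heparan sulfate glycosyltransferase described as a receptor of REG proteins, had 15 smORFs.

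EXTL3 smORFs were also lower after differentiation. Of its 14 smORFs tested, 12 were called lower in control cells and none higher, with log2 fold changes from -2.61 to -0.96 and a median of -1.68, against 0.01 over all smORFs, of which 15.6% were called lower and 17.7% higher. These 14 lay in 3 overlapping groups and are not independent. IEC_00212 held 67 and 60 counts in undifferentiated cells and 18 and 28 in control cells (log2 fold change -1.56 ± 0.31 SE, edgeR adjusted p = 0.000863). With DESeq2 2 of the 14 were called. Without undifferentiated replicate 1 there were 2, without replicate 2 there were 4, and without control replicate 2 there was 1.

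Genes of the signalling that REG4 has been linked to, through EGFR, AKT and AP-1, were measured for 11 of 30. Of 41 smORFs tested, 9 rose, 3 fell and 29 did not pass, with a median log2 fold change of -0.15. The share that rose, 22.0%, was near the 17.7% over all smORFs, and 7.32% fell against 15.6%. The 41 lay in 19 overlap groups, and the 9 that rose lay in 2 genes. JUN, an AP-1 subunit, had IEC_16914 at 5 and 1 undifferentiated counts against 16 and 40 (log2 fold change 3.05 ± 0.55, adjusted p = 0.0004), and ERBB2, a receptor tyrosine kinase, had IEC_01160 at 10 and 11 against 40 and 45 (1.93 ± 0.37, adjusted p = 0.00065). BCL2L1, a survival gene, fell with IEC_14761 (-1.59 ± 0.34, adjusted p = 0.00186). Without undifferentiated replicate 2, 4 smORFs of the list rose.

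Markers of the cells themselves moved with REG4 and IGFL2, and their part in the result was not tested. Of 34 proliferation smORFs tested, 33 fell and none rose (median log2 fold change -3.71), against 15.6% and 17.7% of all smORFs. These 34 lay in 13 overlap groups and are not all independent. The summed level of that list was 9780 to 10200 CPM in undifferentiated libraries and 612 to 796 CPM in all 6 differentiated ones. IEC_16699 in MKI67, a gene of dividing cells, held 63 and 55 counts against 1 and 2, and IEC_06519 in MCM5, a replication helicase gene, held 39 and 26 against 0 and 2. Neither a proliferation smORF named here nor any REG4 or IGFL2 smORF was at 0 in every differentiated library.

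Absorptive enterocyte markers moved the other way. Of 20 smORFs tested, 15 rose and 1 fell (median 2.76), which is 75.0% and 5.0% against 17.7% and 15.6% of all smORFs. These 20 lay in 15 overlap groups, so not all are independent. IEC_16317 in APOA4, an apolipoprotein gene of fat absorption, held 4 and 3 counts against 509 and 898 (log2 fold change 7.49 ± 0.41, edgeR adjusted p = 3.61e-09), and IEC_17434 in the intestinal transcription factor gene CDX2 held 4 and 7 against 55 and 109. The exception was IEC_17174 in APOA1, which fell by 1.43 on the log2 scale (adjusted p = 0.00425), a call lost without undifferentiated replicate 2 or control replicate 1.

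The secretory lineage, where REG4 is known in the intestine, did not move as 1 group. Of its 9 smORFs tested, 6 rose and 2 fell (median 1.91), which is 66.7% and 22.2% against 17.7% and 15.6% of all smORFs. By gene 3 rose and 2 fell, and 4 of the 6 smORFs that rose lay in ZG16. IEC_12877 in the goblet cell gene ZG16 held 0 and 0 counts in undifferentiated cells and 15 and 27 in control cells. IEC_14305 in TFF2, a trefoil peptide gene, rose by 1.52 on the log2 scale (adjusted p = 0.00122). IEC_20061 in AGR2, a disulfide isomerase gene of mucus secretion, fell from 2778 and 1675 counts to 473 and 806 (log2 fold change -1.90 ± 0.26, adjusted p = 2.69e-05), the direction of REG4. IEC_13417 in FOXA1, a transcription factor gene, also fell (-1.21 ± 0.35, adjusted p = 0.0121), a call lost without undifferentiated replicate 2 or control replicate 1. With AGR2 in it, the summed level of the list was 3130 to 4460 CPM before differentiation and 1310 to 1610 CPM after, while the median over its smORFs was above 0. Markers of fibroblasts, immune cells and endothelium summed to 15.3 to 40.7 CPM in undifferentiated cells and 0.0 to 12.6 CPM after, and none of their 17 smORFs passed the filter.

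**Figure D4:**
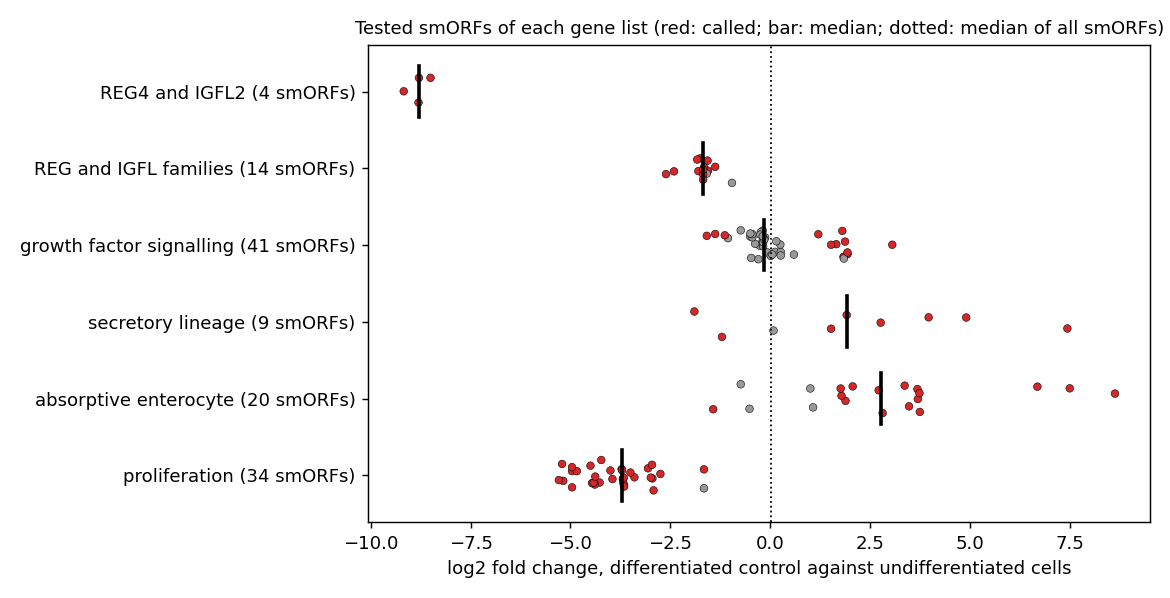
Log2 fold change (x axis) of each smORF tested in differentiated control against undifferentiated cells, by gene list, with called smORFs in red and the list median as a bar. REG4 and IGFL2 were selected on this contrast, and their fitted values near -9 depend on the prior count because control cells held 0 counts.

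The smORFs whose log2 CPM followed the members most closely over the 8 libraries were ranked by Pearson r, given as a description. The libraries form an undifferentiated and a differentiated set and share these sets in every r. For IEC_13492 the closest were IEC_07937 in the long non-coding RNA HULC (r = 0.990), IEC_22661 in C19orf48, IEC_07426 in TSN, IEC_02564 in TMEM216 and IEC_16537 in RNU5E-4P (r = 0.984). For IEC_06046 they were IEC_02407 in TASOR2 (r = 0.996), IEC_15994 in KITLG, IEC_13497 in SLC38A2, IEC_18682 in CYREN and IEC_19916 outside any named gene (r = 0.992). Only KITLG, the gene for stem cell factor, and IEC_19916 were also nearly without counts after differentiation, with 1 each over 6 libraries. The order depended on the prior count added before the logarithm: with 2 in place of 0.5, 1 of the 5 for REG4 and 2 of the 5 for IGFL2 were the same smORFs.

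The sequence just upstream of the RefSeq start of REG4 and of the proximal IGFL2 start held the letters TATAAA, shown in capitals in RefSeq promoter sequence of GRCh38.p14.
REG4 (chr1:119811474-119811503, minus strand): gaggcaagaagaTATAAAagctccagaaac
IGFL2 (chr19:46148210-46148239, plus strand): cataagtccctgTATAAAgtcactgaccca

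The match began 31 bases before the RefSeq start of REG4 and 16 bases before that of IGFL2. IEC_13492 opened between the REG4 match and that RefSeq start, so a transcript from that start lacks its first codon. The IGFL2 match lay inside the distal transcript, in its first intron, so it is upstream only of the proximal transcript. The frames that end before the proximal coding start held the smaller share of the IGFL2 smORF counts. Searched on both strands in the 250 bases upstream, TATAAA was found in 10.7% of 35116 RefSeq promoters, and within 40 to 10 bases of the start on the gene's strand in 2.41%. The IGFL2 match lay inside IEC_12532. TGANTCA (found in 6.57% of promoters), AGATAA (9.17%) and TTTATG (9.64%) each matched once upstream of REG4 and were not in this window of IGFL2.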

How the data were processed

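Ribo-Seq was carried out on 8 Caco-2 libraries in 4 groups of 2, taken from the labels. The authors aligned reads to hg38 with STAR (2.7.11a in the submitters' processing notes), assembled transcripts, called smORFs with RibORF, and deposited raw counts per smORF made with HOMER. The RibORF score (read periodicity and coverage) and PhyloCSF score of each smORF are as the authors deposited them. Its strand, exon and multi-mapping options are not given in the sources used here, so overlapping smORFs can share reads. All per-library columns were used, and library totals were 506382 to 884711.

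Counts were fitted with edgeR 4.0.16 (R 4.3.3; filterByExpr, TMM, quasi-likelihood test, all 8 libraries, 1 term per group), which was tested on simulated data. A call needed a two-sided Benjamini-Hochberg adjusted p under 0.05 over 15182 smORFs and a log2 fold change of 1 or more in size. The labels do not say that replicates were separate cultures, so p-values may measure technical spread. CPM used TMM-scaled totals. Fold bounds used 3 counts per library, and ratios an exact interval. DESeq2 1.42.0, other filters and scaling, left-out libraries and a replicate block were alternatives. Correlations used log2 CPM with a prior count of 0.5, and 2 was added after those values were seen. Members and gene lists were chosen with earlier results of these data known. Named genes were the members, the 5 most alike smORFs, nearest neighbours, family members, and up to 4 called smORFs per direction and list, of which examples are given. A named smORF of the signalling list is not reported here.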

Additional observations from a re-analysis of the deposited data

How the results depend on the processing

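The 4 members tested were called lower against undifferentiated cells in all 3 comparisons under each alternative run, and no micelle comparison called a member. Counts over all smORFs moved more. DESeq2 called 3301 smORFs in control against undifferentiated cells (5060 with edgeR) and 3502 with micelles without lipid (5260). Against control, where edgeR called 0, micelles without lipid gave 36 without the filter, 2 with DESeq2 and 0 to 25 when a library was left out. Lipid micelles gave 4 without the filter, and lipid against empty micelles 23 without the filter and 0 to 1 with a library left out. Summing overlapping smORFs raised the undifferentiated level to 169 CPM for REG4 and 185 CPM for IGFL2.

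The pairing of equal replicate numbers was checked by the correlation of deviations from the group means. Between undifferentiated and differentiated libraries it was -0.0504 to 0.0162, and among the 3 differentiated groups 0.167, 0.108 and 0.092, so the numbers were not taken to pair the libraries. This rests on the prior count: with 2 in place of 0.5, tried after the first values were seen, the last 3 were 0.198, 0.119 and 0.109, all above the limit of 0.1. With the replicate block, micelles without lipid against control gave 15 calls (8 libraries) and 15 (6 differentiated libraries), lipid micelles against control 1 (6 libraries), and lipid against empty micelles 3 and 14, with no member in any.

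Uncalled neighbours changed sign. IEC_22217 went to -0.0 with DESeq2 scaling and test. IEC_10696 went to -0.01 with DESeq2, -0.08 with the replicate block, -0.01 without undifferentiated replicate 2, and -1.71 to 0.79 over the libraries left out. With a library left out, IEC_14603 ran from -0.96 to 0.02, IEC_01491 from -0.89 to 0.05, IEC_10713 from -0.95 to 0.07, IEC_01492 from -0.21 to 1.07 and IEC_01493 from -0.27 to 0.62. Depth limits the members after differentiation, where no library held more than 2 counts.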
